A study of Sus scrofa with 12 samples.

Results

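The thioredoxin system was described in blastocysts of the pig (Sus scrofa) from its thioredoxins, thioredoxin reductase, thioredoxin inhibitor and peroxiredoxins. The list held 9 genes, namely TXN, TXN2, TXNRD1, TXNIP, PRDX1, PRDX2, PRDX3, PRDX5 and PRDX6, grouped by their function. Of these, 8 were matched by symbol to 1 Ensembl identifier each among the 31781 identifiers measured. TXN, the cytosolic thioredoxin, was not matched and is not analysed here. All 8 matched genes passed the filter on low values, which asked for 1 FPKM or more in 3 or more libraries and which 9411 genes passed in all.

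The embryos were parthenogenetic, that is, made by activating an unfertilised egg without sperm, and this holds for every group. The table held 3 libraries of the group titled vitrification II, 3 of vitrification I, 2 of vitrification and 3 of the fresh control, which was not vitrified. Vitrification is cooling so fast that water turns to glass without ice crystals. The labels give no strain, no age and no description of how the vitrification procedures differ, and they do not say which group the liquid helium named in the title was used for. The labels call each sample a blastocyst while the extraction protocol describes sorting of single cells, so whether a library is 1 cell or 1 embryo is not known. The spread behind every p-value is that between the deposited libraries and may be technical.

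Thioredoxins are small proteins that reduce disulfide bonds in other proteins and are themselves recharged by thioredoxin reductase with electrons from NADPH. Peroxiredoxins use those electrons to break down hydrogen peroxide. The system is run in parallel in the cytosol, with TXN, TXNRD1, PRDX1 and PRDX2, and in mitochondria, with TXN2, TXNRD2 and PRDX3. TXNIP binds reduced thioredoxin and blocks it. In preimplantation embryos the system is known as one of the defences against oxidants, to which embryos are exposed in culture and during cooling and warming.

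Levels are given as FPKM, the fragments mapped to a gene scaled by its length and by the size of the library, as the authors deposited them. The summed FPKM of a library lay between 439650 and 591894, and read depth could not be recovered from these values. Genes above 0 numbered 15415 to 16204 in vitrification II, 11550 to 14039 in vitrification I, 17726 and 18527 in vitrification and 15383 to 16046 in fresh control. Fewest were thus detected in vitrification I. Genes at 1 FPKM or more numbered 8626 to 9141, 6808 to 7801, 8024 and 9440, and 6761 to 7589 in the same order, where vitrification I overlapped fresh control. The 13 protein-coding genes of the mitochondrial genome held 16.9 to 22.1% of the FPKM in vitrification II, 43.9 to 64.3% in vitrification I, 38.8 to 51.8% in vitrification and 37.6 to 43.9% in fresh control. A smaller mitochondrial share leaves more FPKM for every other gene. The summed FPKM of 9 trophectoderm markers, which mark the outer layer of the blastocyst, was 13420 to 21830 in vitrification II, 2461 to 5684 in vitrification I, 6446 to 16840 in vitrification and 10270 to 15280 in fresh control. Each of the 9 averaged 1 FPKM or more in every group except ELF3 in vitrification I. The lowest sums were those of vitrification I, but the keratins KRT8 and KRT18 made up 94.5 to 99.1% of the sum, and the list did not move together. In vitrification I 6 of the 9 means were below those of fresh control and 3 above, namely TFAP2A (mean FPKM of 123 in vitrification I, against 9.76 in fresh control), TFAP2C (42.9 against 32.6) and GATA3 (45.5 against 31.7). For the 4 inner cell mass markers found the sum was 37.2 to 89.5, 1.37 to 6.90, 8.15 to 23.7 and 8.22 to 12.6 FPKM in the same order of groups. POU5F1 and SOX2 were also listed but not matched, so this sum leaves them out and is a limited measure of the inner cell mass. Most of the vitrification II sum was LIN28A, with means of 50.6, 0.830, 1.96 and 7.63 FPKM, while NANOG (2.57, 0.820, 4.07 and 0.601) and KLF4 (8.13, 2.02, 9.78 and 1.88) were highest in vitrification. The 4 hypoblast markers found summed to 10.9 to 48.5 FPKM over all libraries, the 6 oocyte markers to 3.85 to 13.4, the 4 leukocyte markers to 0.0211 to 12.7 and the 2 erythroid markers found to at most 10.4, with PTPRC, ZP3, NLRP5 and ALAS2 listed at 0 in every library. Among 5 cumulus and granulosa markers found, follistatin (FST) was the one that reached a mean of 1 FPKM in a group, at 80.2 to 82.8, 19.0 to 23.8, 24.3 to 41.5 and 4.02 to 57.4 FPKM in the same order. The part of these differences in the results on the thioredoxin system was not tested. In such samples fewer cells that express a gene and less RNA of that gene per cell cannot be told apart.

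Changes are differences of mean log2(FPKM + 1) between groups, with the standard error (SE) from limma, a linear model fitted to all genes. A gene was called when the adjusted p of the moderated test of limma, after Benjamini-Hochberg adjustment over the 9411 genes, was under 0.05. The comparisons with fresh control share its 3 libraries and are not independent. The median of all genes itself lay 0.62 higher in vitrification II than in fresh control, 0.06 lower in vitrification I (-0.06) and 0.19 higher in vitrification, and 0.68 higher in vitrification II than in vitrification I. Called changes are therefore also given less this median.

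**Figure D1:**
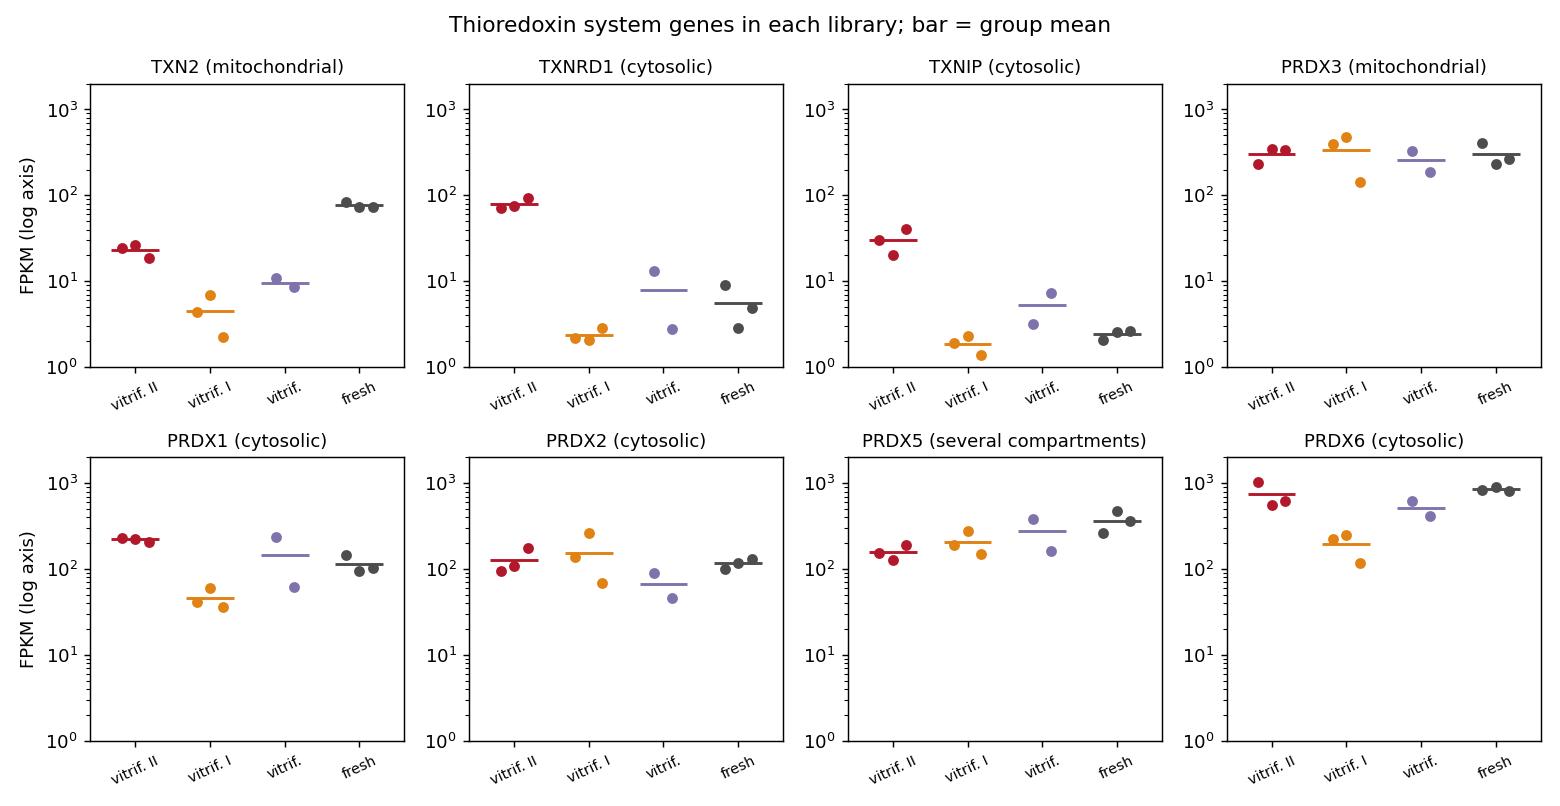
FPKM of the 8 matched genes in each library on a log axis, with 1 point per library and a bar at the group mean, for vitrification II, vitrification I, vitrification and fresh control from left to right. TXN2 was highest in the 3 fresh control libraries (72.5 to 84.1 FPKM), TXNRD1 and TXNIP in the 3 vitrification II libraries, and PRDX3 had overlapping values in every group.

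Among the 8 members, limma found a difference between any of the 4 groups (moderated F test) for 5, namely TXN2, TXNRD1, TXNIP, PRDX1 and PRDX6, where 42.7% of all genes tested were called. Against fresh control, 4 of 8 were called in vitrification II, with TXNRD1 and TXNIP higher and TXN2 and PRDX5 lower, against 25.7% of all genes (24.6% higher, 1.09% lower). Another 3 of 8 calls were made in vitrification I against fresh control, where TXN2, PRDX1 and PRDX6 were all lower, against 18.6% of all genes (8.85% higher, 9.77% lower). The comparison of vitrification with fresh control called 1 of 8, TXN2, which was lower, against 1.37% of all genes (1.25% higher, 0.117% lower). Between the vitrified groups, 5 of 8 were higher in vitrification II than in vitrification I (TXN2, TXNRD1, TXNIP, PRDX1 and PRDX6), against 38.4% of all genes called (34.7% higher, 3.75% lower). Of the 8, TXNRD1 and TXNIP were the 2 called in vitrification II against vitrification, both higher, against 5.98% of all genes (5.05% higher, 0.935% lower). For vitrification I against vitrification limma called 0 of 8, against 5.63% of all genes called (1.21% higher, 4.42% lower). At an unadjusted p under 0.05 there were 5 of 8. The share of all genes at that threshold is not given here, so this count is not read as a result. The same holds for every later count at an unadjusted p. The split of calls over all genes depended on the scaling: the higher share of calls was 95.8% in vitrification II, 47.5% in vitrification I and 91.5% in vitrification against fresh control as deposited, 91.3%, 72.8% and 96.5% with the non-mitochondrial total, and 57.2%, 52.5% and 70.4% after quantile normalization. Between vitrification II and vitrification I it was 90.2%, 68.9% and 48.2% under these scalings in the same order, between vitrification II and vitrification 84.4%, 42.4% and 37.9%, and between vitrification I and vitrification 21.5%, 34.2% and 48.3%. The median log2 change of the 8 members was 0.04 in vitrification II, -0.85 in vitrification I and -0.37 in vitrification, each against fresh control.

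**Figure D2:**
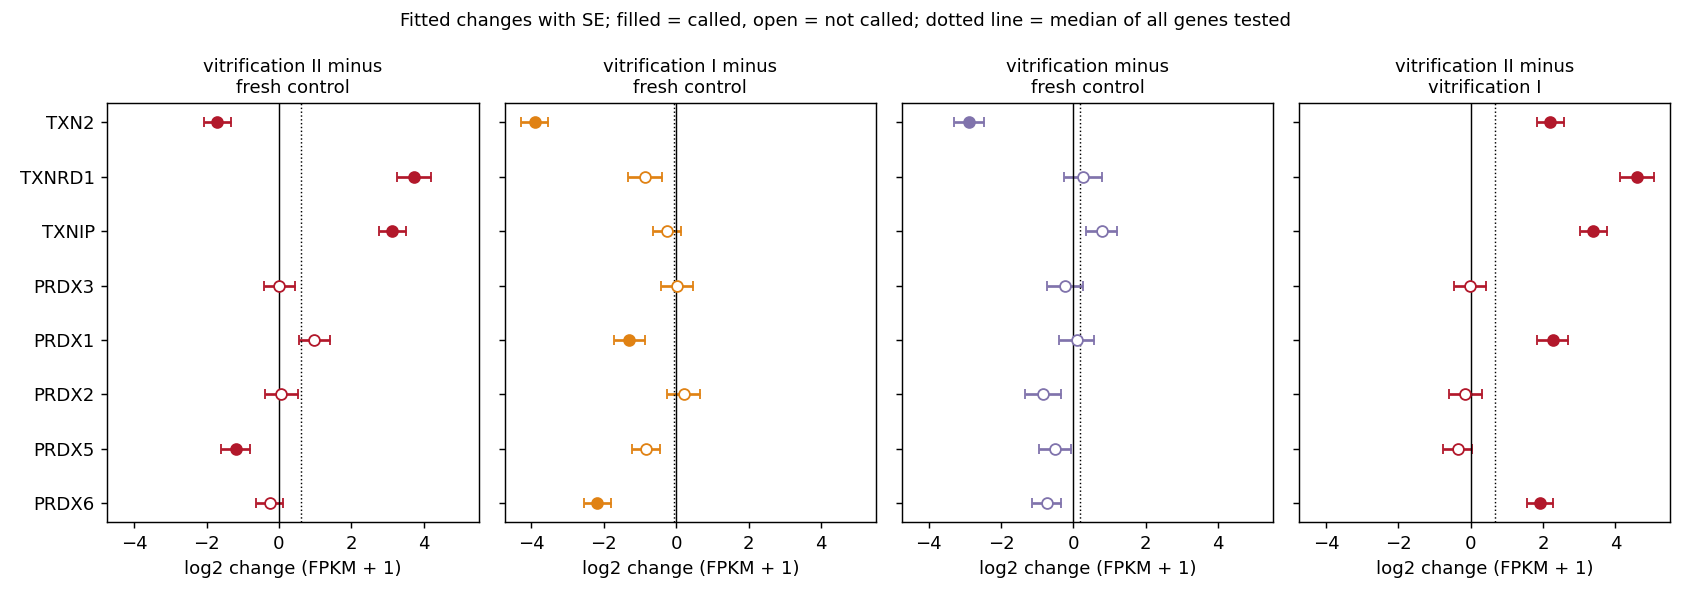
Fitted log2 changes ± SE of the 8 genes for vitrification II, vitrification I and vitrification, each minus fresh control, and for vitrification II minus vitrification I. Filled points were called, open points were not, and the dotted line is the median of all genes tested; TXN2 lies left of 0 in all 3 comparisons with fresh control, and TXNRD1 and TXNIP lie far right in the 2 panels of vitrification II.

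TXN2 (ENSSSCG00000000144), the thioredoxin of the mitochondrial matrix, was lower in every vitrified group than in fresh embryos. It had 24.3, 26.5 and 18.4 FPKM in the vitrification II libraries, 4.38, 6.94 and 2.26 FPKM in vitrification I and 10.9 and 8.47 FPKM in vitrification, against 84.1, 74.0 and 72.5 FPKM in fresh control. No library of one group overlapped another group, and the order of the levels was fresh control, vitrification II, vitrification and vitrification I. Among the 9411 genes of a library, its percentile by FPKM was 72.2 to 78.2 in vitrification II, 46.4 to 61.2 in vitrification I and 63.3 to 74.8 in vitrification, against 92.4 to 92.8 in fresh control. A transcript near the top of the range of levels in fresh embryos was thus near its middle in vitrification I.

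The change of TXN2 against fresh control was -3.91 ± 0.37 in vitrification I (limma adjusted p = 3.71e-05, or -3.84 less the median of all genes). In vitrification II it was -1.71 ± 0.37 (adjusted p = 0.00516, or -2.33 less the median), and in vitrification -2.87 ± 0.41 (adjusted p = 0.0118, or -3.06 less the median). The first of these folds is 15.0 in size on the FPKM + 1 scale, the second 3.26 and the third 7.33. The calls in vitrification I and vitrification II held in all 19 alternative fits. The call in vitrification ended without fresh control replicate 2 (0.0762), without vitrification replicate 2 (0.156) and in a fit of these groups alone (0.0623). TXN2 was also higher in vitrification II than in vitrification I, by 2.2 ± 0.37 (adjusted p = 0.000499, or 1.52 less the median). The neighbours in the middle of the order were not called apart (vitrification II against vitrification, adjusted p = 0.0932; vitrification I against vitrification, adjusted p = 0.146).

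TXNRD1 (ENSSSCG00000000843), the cytosolic selenoprotein that passes electrons from NADPH to thioredoxin, stood high in vitrification II alone among the groups measured. Its level was 71.8, 75.0 and 93.1 FPKM in vitrification II, 2.17, 2.08 and 2.84 FPKM in vitrification I and 13.1 and 2.78 FPKM in vitrification, against 9.03, 2.84 and 4.84 FPKM in fresh control. The vitrification II libraries lay above all 8 others, while the vitrification pair differed widely and enclosed the fresh values. TXNRD1 rose by 3.73 ± 0.47 in vitrification II against fresh control (adjusted p = 0.000266, or 3.10 less the median), a 13.2-fold difference on the FPKM + 1 scale. It was higher by 4.59 ± 0.47 than in vitrification I (adjusted p = 2.58e-05, or 3.90 less the median) and by 3.46 ± 0.53 than in vitrification (adjusted p = 0.00458, or 3.0 less the median). The comparison with vitrification lost its call without vitrification replicate 2 (0.0673), and the other 2 calls held in all 19 alternatives. The remaining groups were not called apart (adjusted p = 0.843 for vitrification and 0.216 for vitrification I against fresh control).

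TXNIP (ENSSSCG00000031262), the inhibitor that binds reduced thioredoxin and also restrains glucose uptake, was high in the same group as the reductase. It had 30.0, 20.1 and 40.1 FPKM in vitrification II, 1.92, 2.33 and 1.37 FPKM in vitrification I and 3.16 and 7.31 FPKM in vitrification, against 2.06, 2.56 and 2.63 FPKM in fresh control. All vitrification II values lay above those of the other groups. TXNIP rose by 3.14 ± 0.38 in vitrification II against fresh control (adjusted p = 0.000239, or 2.52 less the median), 8.79-fold on the FPKM + 1 scale. Against vitrification I the difference was 3.40 ± 0.38 (adjusted p = 3.66e-05, or 2.71 less the median), and both calls held in all 19 alternatives. Against vitrification it was 2.35 ± 0.43 (adjusted p = 0.0135, or 1.89 less the median), a call that ended without vitrification replicate 1 (0.105), without vitrification replicate 2 (0.0531) and after scaling each library to its non-mitochondrial FPKM total (0.0568). Both vitrification libraries lay above the fresh ones, but the difference was not called (adjusted p = 0.358).

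PRDX1 (ENSSSCG00000003914), an abundant cytosolic peroxiredoxin that takes its electrons from thioredoxin, was lowest in vitrification I and highest on average in vitrification II. Its values were 232, 227 and 206 FPKM in vitrification II, 41.6, 59.8 and 36.7 FPKM in vitrification I and 234 and 61.2 FPKM in vitrification, against 144, 94.6 and 104 FPKM in fresh control. The vitrification libraries spanned the whole range of the fresh and vitrification II values, with 1 at each end. PRDX1 was higher in vitrification II than in vitrification I by 2.27 ± 0.43 (adjusted p = 0.00106, or 1.59 less the median), and this call held in all 19 alternatives. It fell by 1.30 ± 0.43 in vitrification I against fresh control (-1.30; adjusted p = 0.0463, or -1.24 less the median). That call ended in 11 of 19 alternatives, among them leaving out any of the 3 fresh control libraries (0.113, 0.0829 and 0.100), vitrification I replicate 1 or 3 (0.121 each) or vitrification II replicate 1, 2 or 3 (0.0606, 0.0622 and 0.0587), and after rescaling to the non-mitochondrial total (0.141). Against fresh control every vitrification II library was higher, with a change of 0.97 ± 0.43 that was not called (adjusted p = 0.104) and was 0.35 less the median of all genes.

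PRDX6 (ENSSSCG00000022742), the peroxiredoxin with a single catalytic cysteine that draws on glutathione rather than thioredoxin and also acts as a phospholipase, was the most abundant of the 5 peroxiredoxins in fresh embryos. It had 1038, 558 and 624 FPKM in vitrification II, 226, 249 and 117 FPKM in vitrification I and 618 and 418 FPKM in vitrification, against 845, 906 and 803 FPKM in fresh control. The vitrification I libraries lay below all others. PRDX6 fell by 2.18 ± 0.37 in vitrification I against fresh control (-2.18; adjusted p = 0.00154, or -2.11 less the median) and was 1.92 ± 0.37 higher in vitrification II than in vitrification I (adjusted p = 0.00116, or 1.24 less the median). Both calls held in all 19 alternatives. Of the 9 trophectoderm marker means, 6 were also lower in vitrification I than in fresh control, namely KRT8, KRT18, ELF3, TEAD4, GATA2 and CDX2. The other means, of TFAP2A, TFAP2C and GATA3, were higher. The mitochondrial share was higher on average (55.7% against 39.9%), although the lowest share in vitrification I was close to the highest in fresh control (43.9% each). The part of any of these in the fall was not tested. After rescaling to the non-mitochondrial total the fall was still called, at -1.68 ± 0.32 (adjusted p = 0.00272). Between vitrification I and vitrification the change was -1.43 ± 0.41 and was not called (adjusted p = 0.0537).

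PRDX5 (ENSSSCG00000013030), an atypical peroxiredoxin found in mitochondria, peroxisomes and the cytosol, was lower in vitrification II. It had 155, 128 and 189 FPKM in vitrification II, 192, 275 and 151 FPKM in vitrification I and 386 and 164 FPKM in vitrification, against 265, 476 and 362 FPKM in fresh control. The vitrification II libraries lay below the fresh ones and overlapped the other vitrified groups. PRDX5 fell by 1.20 ± 0.39 in vitrification II against fresh control (-1.20; adjusted p = 0.0349, or -1.82 less the median). The call ended in 7 of 19 alternatives, which included leaving out fresh control replicate 2 or 3 (0.153 and 0.0959) and vitrification II replicate 1, 2 or 3 (0.0827, 0.114 and 0.0556) and using no filter (0.113). Between vitrification II and vitrification I the change was -0.36 ± 0.39 and was not called (adjusted p = 0.480), but it was called after rescaling to the non-mitochondrial total (-0.998 ± 0.32, adjusted p = 0.0319) and after quantile normalization (-0.94 ± 0.28, adjusted p = 0.0245).

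PRDX3 (ENSSSCG00000010682), the peroxiredoxin of the mitochondrial matrix that is recharged by TXN2, kept overlapping levels in the 4 groups. It had 229, 347 and 334 FPKM in vitrification II, 399, 472 and 145 FPKM in vitrification I and 333 and 188 FPKM in vitrification, against 411, 233 and 268 FPKM in fresh control. The lowest and the highest of the 11 values both belonged to vitrification I. The change against fresh control was 0.01 ± 0.44 in vitrification II, 0.03 ± 0.44 in vitrification I and -0.24 ± 0.49 in vitrification (limma adjusted p = 0.985, 0.973 and 0.849), and the first and the last changed sign under both other scalings. The smallest adjusted p over all alternatives was 0.348 in vitrification I and 0.592 in vitrification.

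PRDX2 (ENSSSCG00000013736), the cytosolic peroxiredoxin best known from red blood cells, was not called in any comparison either. It had 94.1, 110 and 175 FPKM in vitrification II, 137, 262 and 68.0 FPKM in vitrification I and 90.0 and 46.0 FPKM in vitrification, against 101, 119 and 131 FPKM in fresh control. Both vitrification libraries lay below the fresh ones, with a change of -0.84 ± 0.51 (adjusted p = 0.411). The change was 0.07 ± 0.45 in vitrification II and 0.21 ± 0.45 in vitrification I (adjusted p = 0.922 and 0.786), the first of which turned negative under both other scalings.

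The cytosolic and the mitochondrial members were set against each other within each library, where a common scaling of the library cancels apart from the added constant. For a peroxiredoxin of each compartment, the ratio of PRDX1 to PRDX3 was 1.01, 0.655 and 0.619 in vitrification II, 0.105, 0.127 and 0.253 in vitrification I and 0.702 and 0.325 in vitrification, against 0.351, 0.406 and 0.388 in fresh control. The vitrification II ratios lay above and the vitrification I ratios below all fresh ones, and the vitrification pair lay on either side. The log2 ratio averaged -0.43 ± 0.39 in vitrification II, -2.71 ± 0.67 in vitrification I and -1.06 ± 0.78 in vitrification, against -1.39 ± 0.11 in fresh control (SD, n = 3, 3, 2 and 3). The 4 groups differed in this ratio by an exact permutation test of the F statistic over all 92400 arrangements of the libraries (p = 0.00617), and the exact p lay between 0.000714 and 0.0273 when each library was left out. It was the only ratio tested, was chosen with earlier results of these data known, and describes these 2 genes rather than the compartments. In the same libraries PRDX1 differed between the groups and PRDX3 did not (moderated F test, adjusted p = 0.00597 and 0.953). The ratio is therefore not separate from the result on PRDX1. PRDX2, also cytosolic, was not called in any comparison, and its levels in vitrification II and vitrification I overlapped fresh control. Over the 11 libraries PRDX3 correlated with PRDX2 at r = 0.730 and with PRDX1 at r = 0.266. The planned ratio of TXN to TXN2 was not computed, because TXN was not matched.

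Within mitochondria, TXN2 was compared with its client PRDX3, a pair chosen after the values were seen and given without a test. There were 0.106, 0.0763 and 0.0552 FPKM of TXN2 for each FPKM of PRDX3 in vitrification II, 0.0110, 0.0147 and 0.0156 in vitrification I and 0.0326 and 0.0449 in vitrification, against 0.204, 0.318 and 0.270 in fresh control. The 4 groups did not overlap. TXN2 and PRDX3 were thus both mitochondrial members with unlike patterns, one lower in all vitrified groups and the other overlapping throughout. For the cytosolic members, TXNRD1 was highest in vitrification II while PRDX2 overlapped fresh control there.

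**Figure D3:**
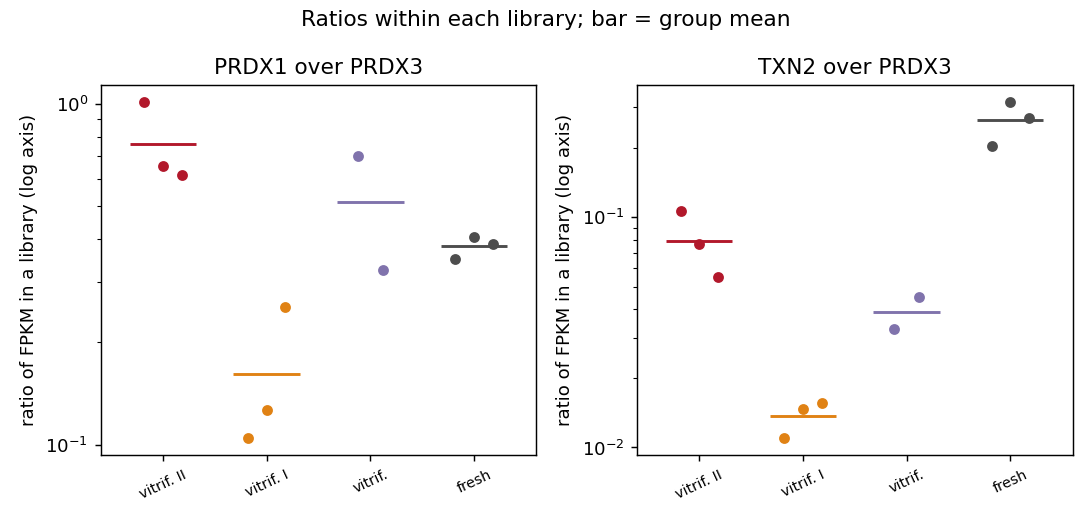
Ratio of FPKM within each library on a log axis for PRDX1 over PRDX3 and for TXN2 over PRDX3, with 1 point per library and a bar at the group mean. PRDX1 over PRDX3 is above fresh control in vitrification II and below it in vitrification I, and TXN2 over PRDX3 is highest in fresh control (0.204 to 0.318) and lowest in vitrification I (0.0110 to 0.0156).

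The make-up of the peroxiredoxin transcripts followed from these changes. The 5 genes summed to 1549 ± 190 FPKM in vitrification II, 944 ± 403 in vitrification I and 1269 ± 553 in vitrification, against 1755 ± 81.2 in fresh control (SD). PRDX6 held 40.8 to 59.4% of that sum in vitrification II, 18.9 to 22.7% in vitrification I and 37.2 to 47.6% in vitrification, against 47.8 to 49.5% in fresh control. PRDX3 held 28.0 to 40.0% in vitrification I and 12.8 to 23.3% in fresh control, and it was the largest share in vitrification I replicates 1 and 2 while PRDX5 was the largest, at 29.1%, in replicate 3. PRDX5 fell to 8.87 to 12.4% of the sum in vitrification II, against 15.0 to 26.0% in fresh control, and PRDX1 made up 13.3 to 16.6% in vitrification II, against 5.17 to 8.16% in fresh control. These shares are given as a description, with no test.

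**Figure D4:**
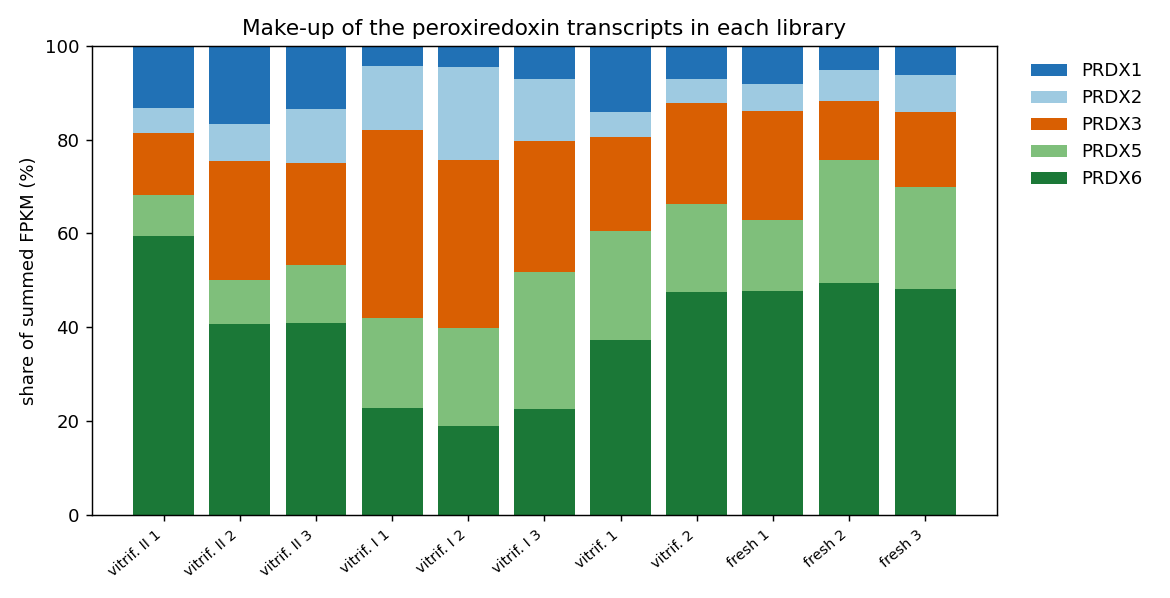
Share of PRDX1, PRDX2, PRDX3, PRDX5 and PRDX6 in their summed FPKM (percent) in each of the 11 libraries, with 1 stacked bar per library. The PRDX6 share is 18.9 to 22.7% in the 3 vitrification I bars and 47.8 to 49.5% in the 3 fresh control bars.

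Genes around the system were counted in 7 lists, which were chosen with earlier results of these data known. Of 16 other thioredoxin-fold and peroxiredoxin genes, 13 passed the filter. The share of all genes called higher or lower in each comparison is the one given for the members. Against fresh control 3 of these 13 were higher (24.6% of all genes were) and none lower in vitrification II, 2 higher and none lower in vitrification I, and 1 higher and none lower in vitrification. The 3 calls in vitrification II (TXNL4B, SRXN1 and TXNDC12) all ended after quantile normalization (adjusted p = 0.392, 0.470 and 0.279). Those of SRXN1 and TXNDC12 also ended with no filter (0.1245 and 0.129) and with an added constant of 0.1 (0.0512 and 0.0559). The count was 1 with the non-mitochondrial total, without any 1 of the 3 vitrification II libraries, and without fresh control replicate 2 or 3, and 2 without fresh control replicate 1. The count in vitrification was 0 without fresh control replicate 2 or vitrification replicate 2, and 2 without fresh control replicate 1. The median change of the 13 was 0.03, 0.34 and 0.36, where that of all genes was 0.62, -0.06 and 0.19. The same medians of all genes apply to the lists below. TXNRD2, the mitochondrial reductase that recharges TXN2, was not called in any comparison, at 3.62 to 5.76 FPKM in vitrification II, 0.894 to 4.11 in vitrification I and 3.46 to 4.49 in vitrification, against 3.35 to 6.30 in fresh control. PRDX4, the peroxiredoxin of the endoplasmic reticulum (ER), went the other way from PRDX1 and PRDX6 between vitrification II and vitrification I. It had 34.8 to 49.7 FPKM in vitrification II, 80.7 to 113 in vitrification I and 63.25 to 96.5 in vitrification, against 43.7 to 65.1 in fresh control. Against fresh control PRDX4 was not called in vitrification II, vitrification I or vitrification (limma adjusted p = 0.432, 0.0946 and 0.427). It was lower in vitrification II than in vitrification I (-1.21 ± 0.34, adjusted p = 0.0117, or -1.89 less the median of all genes). TXNDC5, an ER disulfide isomerase, had 0.994 to 1.82 FPKM in vitrification II, 4.91 to 7.63 in vitrification I and 10.1 to 15.2 in vitrification, against 1.17 to 2.11 in fresh control. It rose in vitrification I (1.45 ± 0.35, adjusted p = 0.0113, or 1.51 less the median) and in vitrification (2.29 ± 0.39, adjusted p = 0.0174, or 2.11 less the median), where the call ended without fresh control replicate 2 (0.0762), without vitrification replicate 2 (0.243) and in a fit of these groups alone (0.0767). TXNDC16, also of the ER, rose in vitrification I against fresh control (2.32 ± 0.48, adjusted p = 0.00501, or 2.39 less the median).

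The glutaredoxins, which do for glutathione what thioredoxins do for their own electrons, had 2 of 4 listed genes with an identifier. GLRX5, which acts in mitochondrial iron-sulfur cluster assembly, was lower in all 3 comparisons with fresh control, as TXN2 was. It had 23.4, 15.8 and 12.8 FPKM in vitrification II, 13.7, 33.4 and 18.0 FPKM in vitrification I and 14.5 and 20.1 FPKM in vitrification, against 55.8, 69.2 and 75.6 FPKM in fresh control. The vitrified groups overlapped each other and lay below the fresh one. The changes were -1.92 ± 0.38, -1.66 ± 0.38 and -1.90 ± 0.43 (adjusted p = 0.00340, 0.00925 and 0.0439), or -2.54, -1.6 and -2.08 less the median, and the third call ended in 13 of 19 alternatives. These included leaving out any fresh control library (0.0537, 0.146 and 0.141 for replicates 1, 2 and 3), vitrification replicate 1 or 2 (0.103 and 0.317) and any vitrification II library (0.0551, 0.0662 and 0.0591). GLRX3, a cytosolic glutaredoxin, was not called, at 88.3 to 88.8 FPKM in vitrification II, 50.9 to 78.5 in vitrification I and 53.6 to 57.7 in vitrification, against 59.4 to 123 in fresh control.

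NADPH is the source of the electrons, and 8 of 10 listed genes of its supply passed the filter. Of these 8, 3 (IDH2, PGD and PGLS) were lower and none higher in vitrification I against fresh control, where 9.77% of all genes were lower. The PGLS call (-1.57 ± 0.38, adjusted p = 0.0110) ended with the non-mitochondrial total (0.0537), without fresh control replicate 2 (0.0607) and without vitrification I replicate 1 (0.05155). Between vitrification II and vitrification I 4 were higher and none lower, where 34.7% of all genes were higher, and 2 after quantile normalization. Against fresh control limma called 0 of 8 in vitrification II and in vitrification, with 0 of 8 in each at an unadjusted p under 0.05. The median change of the 8 was 0.50, -0.76 and -0.15 in vitrification II, vitrification I and vitrification. IDH2, the mitochondrial NADPH-forming isocitrate dehydrogenase, had 52.9 to 73.3 FPKM in vitrification II, 8.67 to 27.5 in vitrification I and 63.4 to 65.5 in vitrification, against 60.6 to 80.8 in fresh control. It fell by 2.05 ± 0.39 in vitrification I against fresh control (-2.05; adjusted p = 0.00297, or -1.99 less the median). PGD, of the pentose phosphate pathway, had 46.5 to 69.2 FPKM in vitrification II and 6.64 to 19.0 FPKM in vitrification I, against 36.8 to 42.4 FPKM in fresh control, and fell in vitrification I by 1.79 ± 0.38 (-1.79; adjusted p = 0.00569, or -1.73 less the median).

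The NRF2 pathway controls the transcription of TXNRD1, PRDX1 and other antioxidant genes through the factor NFE2L2 and its cytosolic repressor KEAP1. Of its 8 genes past the filter, 4 were higher (24.6% of all genes were) and none lower in vitrification II against fresh control. These 4 were OSGIN1, BACH1, KEAP1 and SRXN1, so the count joins the repressors KEAP1 and BACH1 with other genes of the pathway. GCLC, GCLM, SLC7A11 and NFE2L2 were not called there (limma adjusted p = 0.276, 0.595, 0.734 and 0.343). In vitrification I 2 were higher and 1 lower, and limma called 0 of 8 in vitrification, with 1 of 8 at an unadjusted p under 0.05. The count in vitrification II was 1 higher and 1 lower after quantile normalization, where SRXN1 (0.470), KEAP1 (0.273) and OSGIN1 (0.0847) were lost, 2 higher without vitrification II replicate 3 and 2 higher with an added constant of 0.1 or the stricter filter of 5 FPKM. In vitrification I the count was 1 higher and 1 lower without fresh control replicate 2 or vitrification I replicate 1, and 1 higher without fresh control replicate 3. Among the higher genes there, GCLC was also lost with no filter (0.0961) and in a fit of these groups alone (0.0538). The median change of the 8 was 0.91, 0.21 and 0.57 in vitrification II, vitrification I and vitrification, where that of all genes was 0.62, -0.06 and 0.19. In vitrification the count was 1 without fresh control replicate 1. KEAP1 had 14.9, 11.8 and 19.0 FPKM in vitrification II, 0.706, 1.88 and 0.165 FPKM in vitrification I and 6.16 and 4.40 FPKM in vitrification, against 3.48, 4.50 and 5.51 FPKM in fresh control. It was 3.16 ± 0.39 higher in vitrification II than in vitrification I (adjusted p = 7.71e-05, or 2.48 less the median), and higher than in fresh control by 1.56 ± 0.39 (adjusted p = 0.0114, or 0.94 less the median), a call that ended after quantile normalization (0.273), with an added constant of 0.1 (0.0597) and without vitrification II replicate 3 (0.0505). OSGIN1, an oxidative stress response gene, had 7.53, 4.86 and 8.60 FPKM in vitrification II, 0.423, 0.248 and 0 FPKM in vitrification I and 2.43 and 1.64 FPKM in vitrification, against 1.11, 1.32 and 1.15 FPKM in fresh control. It rose by 1.84 ± 0.33 in vitrification II against fresh control (adjusted p = 0.00166, or 1.22 less the median), with the call ended after quantile normalization (0.0847).

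BACH1, a repressor that competes with NFE2L2 for the same sites, was higher in both numbered vitrification groups. It had 11.9, 20.1 and 11.8 FPKM in vitrification II, 14.6, 24.6 and 13.8 FPKM in vitrification I and 3.18 and 6.17 FPKM in vitrification, against 3.98, 1.56 and 1.59 FPKM in fresh control. The changes against fresh control were 2.24 ± 0.41 in vitrification II and 2.49 ± 0.41 in vitrification I (adjusted p = 0.00196 and 0.00128, or 1.62 and 2.56 less the median), and both held in all 19 alternatives. NFE2L2 itself was not called, at 53.2 to 63.8 FPKM in vitrification II, 44.5 to 68.1 in vitrification I and 42.1 to 52.7 in vitrification, against 68.2 to 105 in fresh control.

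TXNIP belongs to the arrestin-domain family, and 5 of the 8 genes listed as its relatives and regulators passed the filter. Against fresh control 2 of these 5 were higher (24.6% of all genes were) and none lower in vitrification II, 2 were lower (9.77% of all genes were) and none higher in vitrification I, and limma called 0 of 5 in vitrification, with 1 of 5 at an unadjusted p under 0.05. The 2 in vitrification I, MLX and MLXIP, were both lost with the non-mitochondrial total (0.105 and 0.0982), without fresh control replicate 2 (0.0533 and 0.182), without fresh control replicate 3 (0.103 and 0.122) and without vitrification I replicate 1 (0.153 and 0.0664). Both were also lost with no filter (0.133 and 0.227) and in a fit of these groups alone (0.0712 and 0.0613). MLXIP was lost with an added constant of 0.1 (0.0515) and with the replicate block (0.0523) too. The count was 1 without fresh control replicate 1, without vitrification replicate 1 or 2, without vitrification I replicate 3 and without vitrification II replicate 3. The count in vitrification II was 1 after quantile normalization, where ARRDC3 was lost (0.0583), and ARRDC3 was also lost with no filter (0.0668). For the 5 genes the median change was 1.09, -0.10 and 0.23 in vitrification II, vitrification I and vitrification. ARRDC4, the closest relative of TXNIP that answers to the same glucose-sensing factors, had 11.8, 7.95 and 8.51 FPKM in vitrification II, 0.863, 0.344 and 0 FPKM in vitrification I and 0.332 and 0.621 FPKM in vitrification, against 1.25, 0.0996 and 0.239 FPKM in fresh control. As for TXNIP, the vitrification II libraries lay above all others. ARRDC4 rose by 2.82 ± 0.36 against fresh control (adjusted p = 0.000300, or 2.2 less the median) and was higher than in vitrification I by 2.92 ± 0.36 (adjusted p = 7.71e-05, or 2.24 less the median), and both calls held in all 19 alternatives. MLX, the partner of those factors, was 2.58 ± 0.46 higher in vitrification II than in vitrification I (adjusted p = 0.000690, or 1.90 less the median), at 10.7 to 18.7 FPKM against 0.191 to 2.78 FPKM. MLX was not called in vitrification II against fresh control (1.09 ± 0.46, limma adjusted p = 0.0907) or against vitrification (adjusted p = 0.289). The factor MLXIP was not called in vitrification II against fresh control either (-0.74 ± 0.56, adjusted p = 0.336). The factor MLXIPL reached at most 0.244 FPKM in vitrification II and 0.0352 FPKM in vitrification, and was 0 in the other groups.

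**Figure D5:**
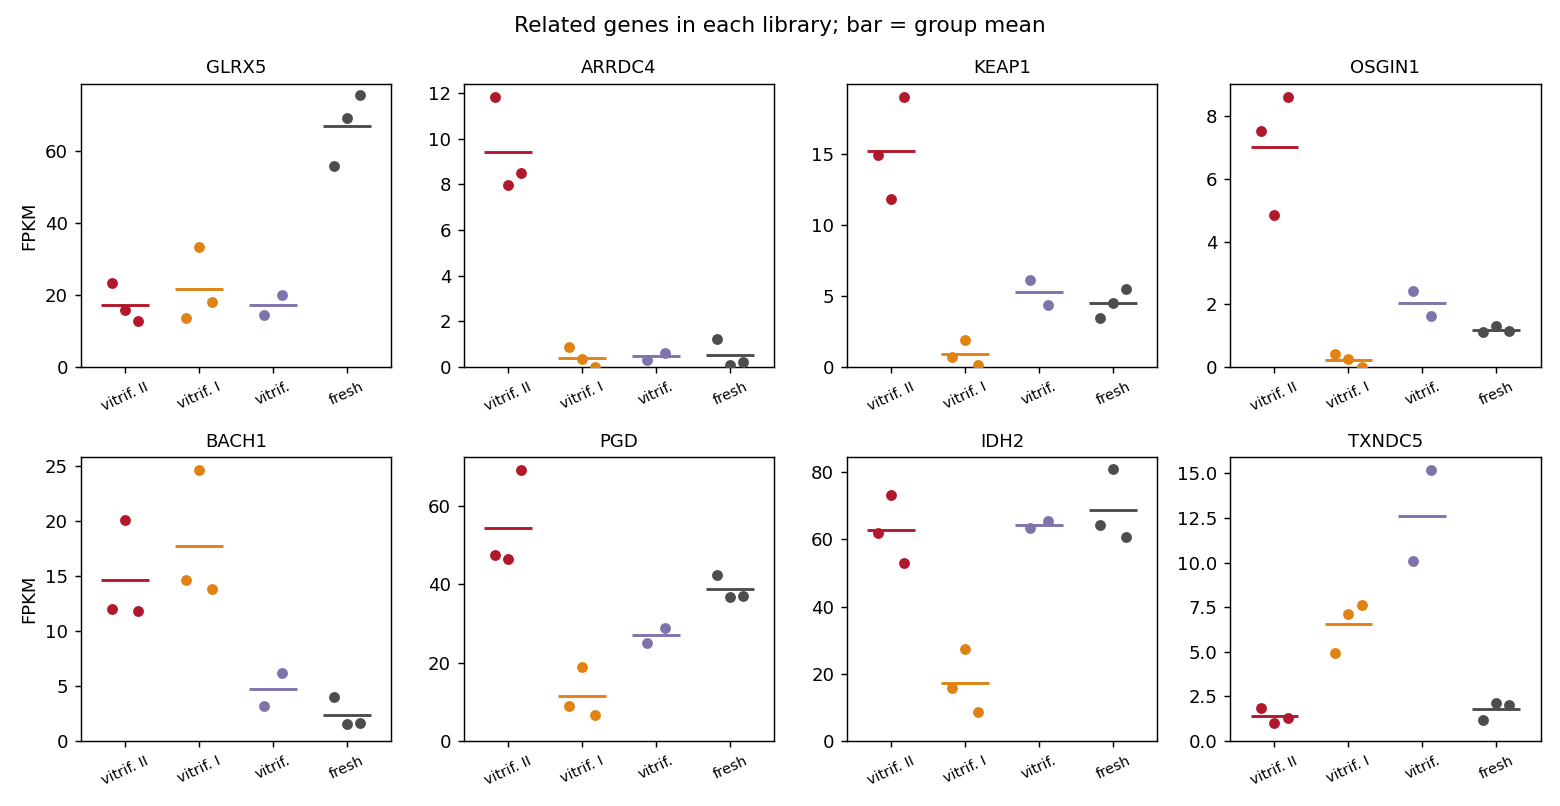
FPKM on a linear axis of 8 genes around the thioredoxin system in each library, with 1 point per library and a bar at the group mean. GLRX5 is highest in fresh control, ARRDC4, KEAP1 and OSGIN1 in vitrification II, and IDH2 and PGD are lowest in vitrification I.

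Of the thioredoxin clients and partners 9 of 12 passed the filter. Against fresh control 3 of these 9 were higher (24.6% of all genes were) and none lower in vitrification II, 1 was higher and 1 lower in vitrification I, and limma called 0 of 9 in vitrification, with 2 of 9 at an unadjusted p under 0.05. The 3 in vitrification II, MSRB3, SESN2 and RRM1, were all lost after quantile normalization (0.0680, 0.328 and 0.417), and 1 was left without fresh control replicate 2 or without vitrification II replicate 1 or 2. SESN2 and RRM1 were also lost with no filter (0.0918 and 0.166). RRM1 was lost with the non-mitochondrial total (0.111) and with an added constant of 0.1 (0.0663) too. The lower call in vitrification I, MSRB1, was lost with the non-mitochondrial total (0.0619), without fresh control replicate 2 or 3 (0.106 and 0.0881) and without vitrification I replicate 1 or 3 (0.0703 and 0.0921). It was also lost with no filter (0.0645) and in a fit of these groups alone (0.0550). Over the 9 genes the median change was 0.69, -0.07 and -0.22 in vitrification II, vitrification I and vitrification. MSRB3, a methionine sulfoxide reductase, rose in vitrification II (2.15 ± 0.42, adjusted p = 0.00283, or 1.53 less the median) and in vitrification I (1.87 ± 0.42, adjusted p = 0.00768, or 1.93 less the median). Its relative MSRB1, a selenoprotein like TXNRD1, was 1.96 ± 0.36 higher in vitrification II than in vitrification I (adjusted p = 0.000971, or 1.28 less the median). Of 5 genes for the insertion of selenocysteine, 3 passed the filter. EEFSEC, the elongation factor that delivers selenocysteine, had 2.91 to 4.88 FPKM in vitrification II and 0.258 to 0.920 FPKM in vitrification I, against 4.17 to 5.81 FPKM in fresh control. It fell in vitrification I by 1.85 ± 0.34 (-1.85; adjusted p = 0.00241, or -1.79 less the median), and limma called 0 of 3 in vitrification II and in vitrification against fresh control, with 0 of 3 in each at an unadjusted p under 0.05. The median change of the 3 was -0.13, -1.06 and -0.29 in vitrification II, vitrification I and vitrification.

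The genes whose pattern over the 11 libraries was most like that of a member were found by the Pearson correlation of log2(FPKM + 1) among genes with a symbol. The libraries share their scaling and fall into 4 groups, so these values describe likeness and no more. TXN2 was most like RNF26 (r = 0.946), MRPL38 of the mitochondrial ribosome (r = 0.934) and NOP53 of ribosome assembly (r = 0.933). NOP53 had 8.35 ± 2.39 FPKM in vitrification II, 2.21 ± 1.80 in vitrification I and 2.33 ± 0.0276 in vitrification, against 18.0 ± 5.60 in fresh control (SD). TXNIP was most like ACAD11 (r = 0.987), DHX37 (r = 0.981) and DDB1 of DNA repair (r = 0.981). DDB1 had 25.1 ± 9.69 FPKM in vitrification II, 1.97 ± 0.615 in vitrification I and 4.91 ± 2.65 in vitrification, against 1.56 ± 0.526 in fresh control. For TXNRD1 the nearest were SLCO6A1 (r = 0.977), MOB3A (r = 0.969) and ANKRD34B (r = 0.968), which all averaged under 3 FPKM in every group. PRDX6 was most like TUFM, the mitochondrial translation elongation factor (r = 0.981), POLDIP2 (r = 0.977) and SMIM1 (r = 0.972). PRDX1 was most like the stratifin gene SFN (r = 0.954), URM1 (r = 0.950) and TPD52L2 (r = 0.949). PRDX3 was most like ATP5MK of ATP synthase (r = 0.913), SNRPE (r = 0.911) and FAM162A (r = 0.908). PRDX5 was most like GAPDH (r = 0.898), ATP5PO (r = 0.893) and HSD17B10 (r = 0.867), and PRDX2 was most like LACTB2 (r = 0.949), CIAO2A and UFM1 (r = 0.880 each).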

How the data were processed

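RNA of pig parthenogenetic blastocysts was measured by Smart-Seq2, which amplifies cDNA from very small inputs, with 150-base paired-end reads, per the labels. The authors deposited FPKM, fragments scaled by gene length and library size, for each Ensembl gene. Among the tools in the submitters' processing notes are TopHat2 2.0.13 and Cufflinks 2.2.1, with FastQC and DESeq2, but no roles are given. The genome build and the treatment of reads shared by similar gene copies are not given in the sources used here. Of the 12 samples in the labels, 11 had a column; the third vitrification library had none and is not analysed here, which leaves 2 of 3 in that group. No 2 libraries were identical (0 pairs), and 0 columns went unused.

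Symbols from the reference gene table matched 15347 of 31781 identifiers. The FPKM were taken as log2(FPKM + 1) and fitted with limma 3.58.1 in R 4.3.3, with 1 mean per group, a spread shared by the 11 libraries and a mean-dependent prior, and tested two-sided over 9411 genes for 6 pairs of groups. The fit was also run on simulated data with independent noise and known changes in a small part of the genes. Those data had no shift of the median of all genes, so the run does not cover the shifts seen here. The added constant understates changes of low genes. A further 19 alternatives were run for each pair, 11 of which leave out 1 library. Where that leaves vitrification with a single library, it is assumed to vary like the others.

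All 9 listed members are named. Of the related lists, up to 4 called genes per list and comparison with the smallest adjusted p could be named. Uncalled genes named there (TXNRD2, GLRX3, NFE2L2, MLXIPL, GCLM and SLC7A11) were chosen after their values were seen. The members, lists and ratios were chosen with earlier results of these data known. The genes most like a member are the 3 with the highest correlation.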

Additional observations from a re-analysis of the deposited data

How the results depend on the processing

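Depth and the origin of each library (cell or embryo) are unknown, and groups of 2 or 3 libraries limit every comparison. Of 912 alternative values of member changes, 840 kept their direction and their side of the threshold, 25 lost a call, 9 gained one and 38 changed sign, all of them for changes that were not called. The counts of members called kept within 1.5 times in vitrification II against vitrification I (5 to 5 when a library was left out), against fresh control (3 to 5) and in vitrification I against fresh control (2 to 3), as did the F test (5 to 6). In vitrification against fresh control the count was 0 in a fit of these groups alone and 0 to 1 when a library was left out. In vitrification I against vitrification it was 1 with the stricter filter (FPKM of at least 5) and 0 to 1 when a library was left out. In vitrification II against vitrification it was 1 with the non-mitochondrial total and 0 to 3 when a library was left out. Counts in the related lists moved in 145 of 798 alternatives. The median change of all genes against fresh control was 0.50 in vitrification II, 0.26 in vitrification I and 0.38 in vitrification with the non-mitochondrial total. The cause of these changes was not tested.

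Same-numbered libraries of different groups did not deviate together (correlations from -0.158 to 0.143 over 15 pairs, 2 of them over 0.1, with 4 of 11 libraries best matched to their own number), so the numbers are not taken as pairs. With the replicate block, 3 members were called in vitrification II against fresh control in place of 4, since PRDX5 was lost (0.0503). The other counts with the block were 3 in vitrification I and 1 in vitrification against fresh control, 5 in vitrification II against vitrification I, 2 in vitrification II and 0 in vitrification I against vitrification, and 5 in the F test.

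Signs turned under another scaling for PRDX3 in vitrification II (-0.13 with the non-mitochondrial total, -0.03 with quantile normalization) and in vitrification (0.027 and 0.012) against fresh control, and in vitrification II against vitrification (-0.15 and -0.043). They also turned for PRDX2 in vitrification II (-0.072 and -0.12), for TXNIP in vitrification I (0.075 with the non-mitochondrial total) and for TXNRD1 in vitrification (-0.054 with quantile normalization), each against fresh control. When each library was left out, the change in vitrification against fresh control ran from -0.69 to 1.21 for TXNRD1, -0.86 to 1.05 for PRDX1, -0.65 to 0.17 for PRDX3 and -1.12 to 0.11 for PRDX5. In vitrification I against fresh control it ran from -0.26 to 0.70 for PRDX2 and -0.29 to 0.55 for PRDX3, and in vitrification II from -0.19 to 0.25 for PRDX2 and -0.16 to 0.25 for PRDX3. For vitrification I against vitrification it ran from -0.14 to 0.79 for PRDX3 and -0.95 to 0.28 for PRDX5, and in vitrification II against vitrification from -0.076 to 1.84 for PRDX1 and -0.16 to 0.66 for PRDX3. For vitrification II against vitrification I it ran from -0.63 to 0.33 for PRDX2 and -0.54 to 0.31 for PRDX3.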
